A study of Homo sapiens with 12 samples.

Results

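The genes described here are 10 regulators of mitochondrial apoptosis from the BCL2 family, taken by symbol from the count tables. They comprise the anti-apoptotic BCL2, BCL2L1 and MCL1, the effectors BAX and BAK1, and the BH3-only BCL2L11, BBC3, PMAIP1, BID and BAD. All 10 were among the 16384 symbols listed, and all 10 passed the filter on low counts, as did 12645 genes in all. RNA was sequenced from MDA-MB-231, an established line of triple-negative breast cancer cells and labelled WT in every group. The CAR group was given CAR at 10 µmol/L, cardamonin by the title of the series, a plant chalcone. The JQ1 group was given JQ1 at 25 µmol/L, a BET bromodomain inhibitor that displaces BET proteins from acetylated chromatin. The Combination group was given both agents at these doses, and the DMSO group the solvent DMSO. Each group had 3 libraries, all from the same line, and the duration of treatment is not given in the sources used here. No label ties the replicates to separate cultures, and the spread behind every p-value may therefore be technical.

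Proteins of the BCL2 family decide whether the outer mitochondrial membrane stays intact. BAX and BAK1 form the pores through which cytochrome c leaves, the anti-apoptotic proteins hold them in check, and BH3-only proteins relay stress by binding the anti-apoptotic proteins or activating the effectors. The balance is set largely by binding between proteins, and MCL1 and PMAIP1 are short-lived proteins, so transcript levels describe only the supply of each mRNA. BET inhibitors are known in blood cancers for lowering BCL2 and raising BCL2L11.

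The upstream regions of 4 members are printed because these members had the largest falls, the clearest rise, or an unusual motif content. They hold the 250 bases before the gene start in RefSeq, GRCh38.p14, read 5′ to 3′ on the gene's strand, and capitals mark matches to the motifs searched. RefSeq starts differ from the GENCODE gene bounds given below for each member. By those bounds the BCL2, BID and BCL2L11 windows lie inside the gene, and the BAX window crosses its start. The RefSeq table matched 9 of the 10 members.
BCL2 (chr18:63319770-63320019, minus strand): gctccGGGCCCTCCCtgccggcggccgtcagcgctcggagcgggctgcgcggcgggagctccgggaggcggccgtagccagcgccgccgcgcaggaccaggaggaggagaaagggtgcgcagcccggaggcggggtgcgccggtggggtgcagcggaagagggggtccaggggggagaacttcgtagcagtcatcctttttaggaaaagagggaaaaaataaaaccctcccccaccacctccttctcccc
BID (chr22:17774470-17774719, minus strand): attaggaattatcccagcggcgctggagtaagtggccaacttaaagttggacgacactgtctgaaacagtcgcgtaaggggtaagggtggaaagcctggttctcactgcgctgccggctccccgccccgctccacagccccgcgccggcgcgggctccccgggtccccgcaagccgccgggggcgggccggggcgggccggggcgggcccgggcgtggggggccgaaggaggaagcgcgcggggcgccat
BCL2L11 (chr2:111120664-111120913, plus strand): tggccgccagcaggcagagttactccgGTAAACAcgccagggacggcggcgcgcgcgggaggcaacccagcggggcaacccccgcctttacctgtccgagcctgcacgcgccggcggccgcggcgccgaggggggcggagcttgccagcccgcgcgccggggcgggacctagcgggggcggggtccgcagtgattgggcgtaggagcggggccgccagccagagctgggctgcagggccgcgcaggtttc
BAX (chr19:48954625-48954874, plus strand): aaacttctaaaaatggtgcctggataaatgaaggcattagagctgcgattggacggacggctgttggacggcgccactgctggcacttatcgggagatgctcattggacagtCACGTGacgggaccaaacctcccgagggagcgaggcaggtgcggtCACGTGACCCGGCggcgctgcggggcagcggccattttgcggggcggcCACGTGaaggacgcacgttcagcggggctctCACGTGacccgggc

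Motifs were searched on both strands in windows of 300 bases, from 250 before to 50 after the start, in 35116 promoters. The TATA box was searched as TATAAA, which 11.5% of promoters held. The E-box of MYC, MAX and related factors was searched as CACGTG, held by 7.26%. The AP-1 site was searched as TGANTCA, held by 7.71%. The antioxidant response element of NRF2 was searched as TGACNNNGC, held by 13.4%. The FOXO site was searched as GTAAACA, held by 3.42%. The ATF4 composite site was searched as TGATGNAA, held by 3.62%. The E2F site was searched as TTNGCGC, held by 7.81%. The NF-kB site was searched as GGGA and CC with any 4 bases between them, held by 25.6%. BAX held the E-box letters 4 times, with matches that began 138, 93, 45 and 14 bases before the start. Of all promoters, 5 (0.0142%) held at least 4 of them. This count was made after the sequence was seen. The antioxidant response element letters in BAX began 89 bases before the start and overlapped the E-box match at 93. BCL2L11 held the FOXO letters 223 bases before its start, and BCL2 the NF-kB letters 245 bases before its start. BID, with the steepest fall in JQ1, held none of the letters searched, which says only that they are not in its window. BBC3 held an E-box and an AP-1 match, PMAIP1 an NF-kB match, BAD an antioxidant response element match and BAK1 none. BCL2L1 held TATA box matches that began 208 and 125 bases before its start, and an E2F match 110 bases before it. Its antioxidant response element match began 16 bases after the start.

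A library held 17449715 to 19754456 counts, and the members had 58 to 10272 counts in a library. Levels are given as TMM-scaled CPM, the count share (CPM) after scaling each library by its TMM factor, and 3 counts correspond to 0.147 to 0.177 CPM. Vimentin (VIM), typical of this line, stood at 2110 CPM in DMSO. The oestrogen and progesterone receptor genes ESR1 and PGR, which define other breast cancers, had at most 9 and 13 counts in any library. ERBB2, a further receptor gene, averaged 112 CPM in DMSO. Of 8 leukocyte markers, the 5 in the tables summed to 0.586 to 3.40 CPM. The 8 endothelial and fibroblast markers summed to 25.7 to 107 CPM. PDGFRB, the highest of them, averaged 14.15 CPM in CAR, 96.5 in JQ1 and 40.3 in Combination, against 31.2 in DMSO. DMSO replicate 3 stood apart from its group by transcript length, with a Spearman rho across 6152 genes of -0.758 between length and deviation, against 0.622 and 0.671 in the other DMSO libraries and -0.29 to 0.268 in the drug libraries. Combination replicate 1 carried 154 CPM summed over 12 hepatocyte markers, none of them at 0, against 1.39 to 3.67 CPM in the other 11 libraries. Scaling by total counts in place of TMM moved the median of all genes by -0.119 (log2) in JQ1 and by -0.21 in Combination, each minus DMSO. That scaling left 35.7% of called genes higher in CAR, 39.3% in Combination minus DMSO and 32.9% in Combination minus JQ1, against 47.6%, 49.9% and 50.1% with TMM. In bulk RNA, fewer cells of a type and less RNA per cell cannot be told apart.

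Against DMSO, CAR moved the members by less than 1.5-fold. JQ1 lowered BID 4.77-fold, BCL2 3.47-fold and BCL2L1 1.5-fold and raised BBC3 2.14-fold and BCL2L11 1.84-fold. The Combination lowered BCL2 4.49-fold, BID 4.08-fold, BCL2L1 2.20-fold and PMAIP1 1.76-fold and raised BCL2L11 1.93-fold. Genes were called at an adjusted p under 0.05 in the edgeR quasi-likelihood test, after Benjamini-Hochberg adjustment over all 12645 genes, and every adjusted p below is from that fit. In CAR minus DMSO, 4 members were called higher, beside 27.3% of all genes tested, and 3 lower, beside 30.1%, so that 7 of 10 were called beside 57.3%. In JQ1 minus DMSO, 3 were called higher, beside 41.5%, and 7 lower, beside 42.2%, so that 10 of 10 were called beside 83.7%. In Combination minus DMSO, 4 were called higher, beside 42.6%, and 6 lower, beside 42.8%, so that 10 of 10 were called beside 85.4%. The median log2 change over the members was 0.10 in CAR, -0.41 in JQ1 and -0.42 in Combination, against -0.02, -0.01 and 0.0015 over all genes tested. Libraries did not overlap with those of DMSO for 8 members in CAR, 10 in JQ1 and 9 in Combination, beside 59.9%, 83.2% and 84.8% of all genes. Both drug responses with JQ1 thus reached most genes tested, and the share of members called is read against that. Without DMSO replicate 3 and Combination replicate 1 together, 4 members were higher and 3 lower in CAR, 3 higher and 6 lower in JQ1 and 3 higher and 6 lower in Combination, each minus DMSO. The members lower in CAR were then not the same. BAD lost its call (-0.07, adjusted p = 0.239) and BCL2L11 gained one (-0.12, adjusted p = 0.038).

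**Figure D1:**
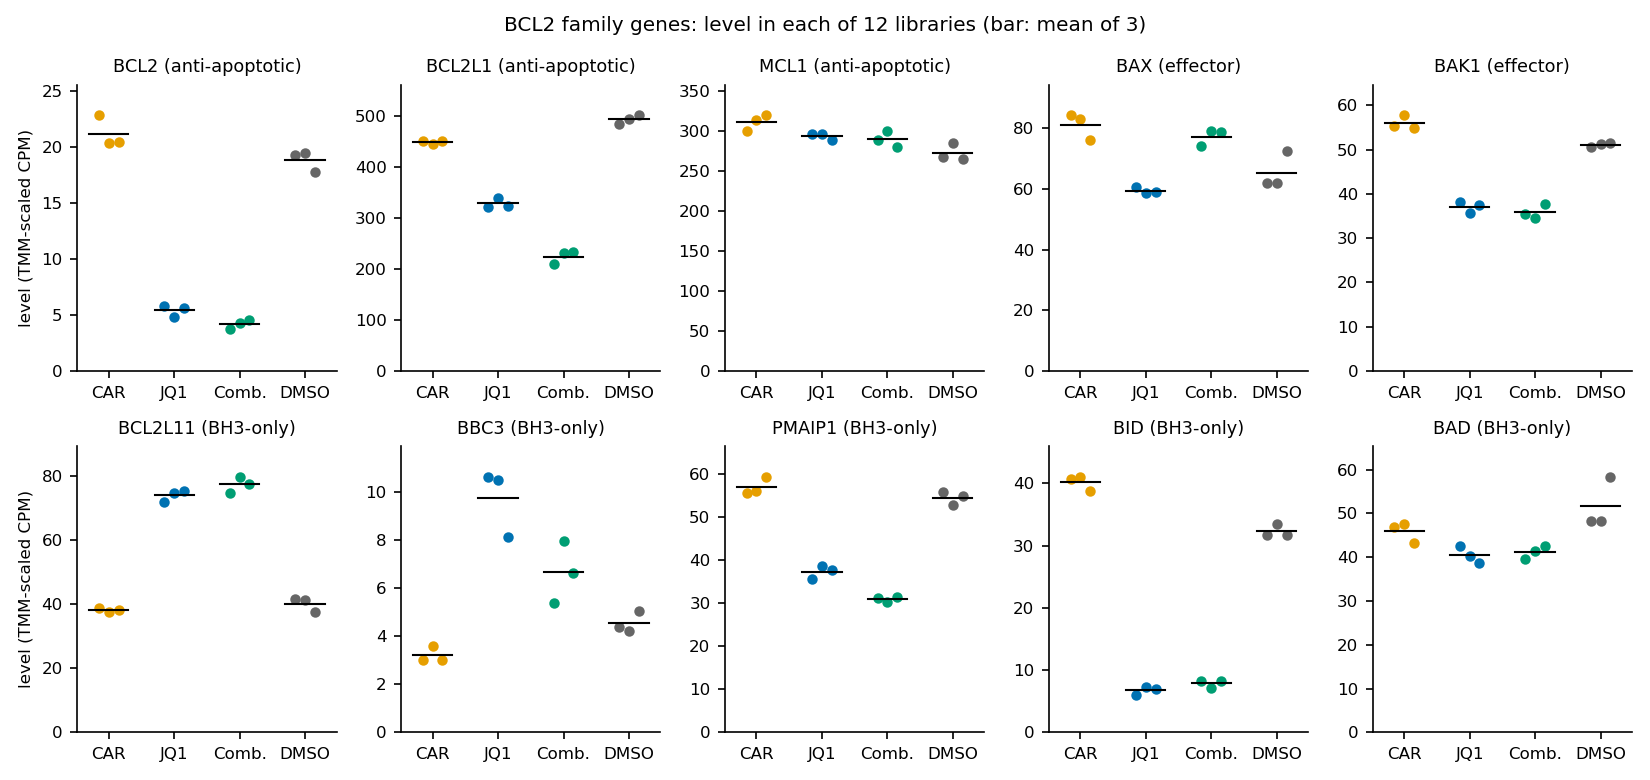
Level of each BCL2 family gene in the 12 libraries, in TMM-scaled CPM on linear axes that start at 0. Points are libraries, bars are the means of 3, and Comb. is Combination. BCL2 and BID sit lowest in JQ1 and Combination, BCL2L11 sits highest there, and MCL1 lies between 264 and 319 CPM in every library.

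**Figure D2:**
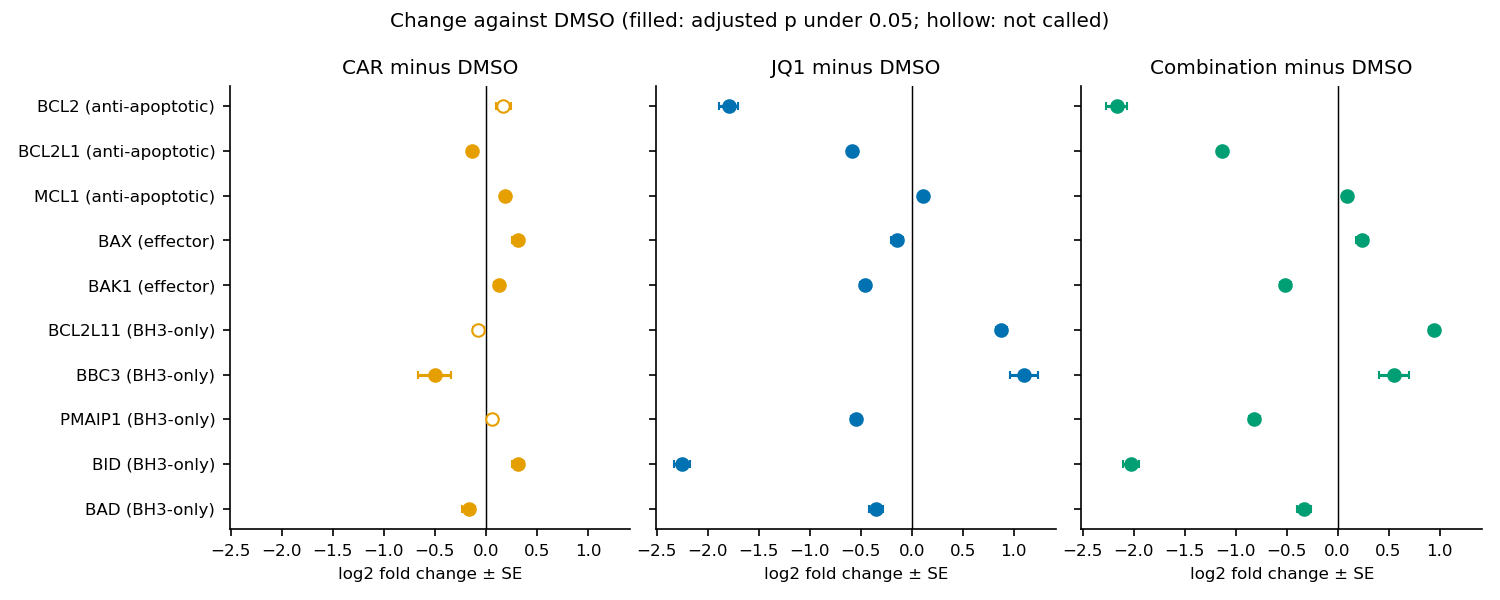
Log2 fold change of each member against DMSO in CAR, JQ1 and Combination, with its standard error. Filled points were called at an adjusted p under 0.05 and hollow points were not. BID and BCL2 lie far left in JQ1 and Combination, and BCL2L11 and BBC3 lie right.

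Among the anti-apoptotic members, BCL2 and BCL2L1 fell in JQ1 and fell further in Combination, while MCL1 stayed within 1.15-fold of DMSO in every group. BCL2, the founding member of the family (chromosome 18, 63123346 to 63320128, minus strand, GRCh38), had 22.9, 20.4 and 20.5 CPM in CAR, 5.82, 4.81 and 5.65 CPM in JQ1 and 3.72, 4.30 and 4.57 CPM in Combination, against 19.3, 19.5 and 17.8 CPM in DMSO. The groups did not overlap, with CAR highest, then DMSO, JQ1 and Combination. Its log2 change was -1.80 (SE 0.095, adjusted p = 7.76e-14) in JQ1 and -2.17 (SE 0.10, adjusted p = 7.73e-15) in Combination. In CAR, BCL2 changed by 0.17 (SE 0.074), which missed the threshold with an adjusted p of 0.0547 and passed it at 0.0478 without JQ1 replicate 2 (0.17) and at 0.00241 with a correction for transcript length and GC content (0.25). Combination lay below JQ1 by a log2 of -0.37 (SE 0.13, adjusted p = 0.0192). That call was lost without JQ1 replicate 1 (-0.31, adjusted p = 0.0786), JQ1 replicate 3 (-0.34, adjusted p = 0.0549) or Combination replicate 1 (-0.29, adjusted p = 0.0947), and with the length and GC correction (-0.27, adjusted p = 0.063).

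BCL2L1, which encodes BCL-XL (chromosome 20, 31664452 to 31723989, minus strand), fell stepwise across the groups. It had 451, 446 and 452 CPM in CAR, 323, 340 and 325 CPM in JQ1 and 210, 232 and 233 CPM in Combination, against 485, 494 and 502 CPM in DMSO. No library overlapped with another group, and DMSO was highest and Combination lowest. The log2 change was -0.14 (SE 0.039, adjusted p = 0.00555) in CAR, -0.59 (SE 0.040, adjusted p = 6.59e-12) in JQ1 and -1.14 (SE 0.040, adjusted p = 6.62e-17) in Combination. Combination was 1.47-fold below JQ1 (adjusted p = 3.25e-10) and 2.0-fold below CAR (adjusted p = 5.46e-16). The BCL-XL and BCL-XS isoforms of BCL2L1 share one count and were not resolved, nor were those of MCL1 and BCL2L11. An exon of ABALON on the other strand overlaps BCL2L1 over 1424 bases.

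MCL1, the short-lived partner of BCL2L11 and PMAIP1 (chromosome 1, 150574551 to 150579738, minus strand), differed little between groups. It had 299, 313 and 319 CPM in CAR, 296, 295 and 288 CPM in JQ1 and 288, 300 and 280 CPM in Combination, against 267, 284 and 264 CPM in DMSO. CAR had the highest mean, and Combination overlapped with CAR, JQ1 and DMSO. The call in CAR (log2 0.19, SE 0.039, adjusted p = 0.000279) held in every alternative run. In JQ1 (0.11, adjusted p = 0.014) it was lost without DMSO replicate 1 (0.09, adjusted p = 0.0618) or with upper-quartile scaling (0.05, adjusted p = 0.231), and total count scaling gave -0.01. In Combination (0.09, adjusted p = 0.0368) it was lost without DMSO replicate 1 (0.07, adjusted p = 0.133), Combination replicate 1 (0.09, adjusted p = 0.0638) or Combination replicate 2 (0.07, adjusted p = 0.169). It was also lost with upper-quartile scaling (0.02, adjusted p = 0.642), DESeq2 (0.09, adjusted p = 0.0585) or only the groups compared (0.08, adjusted p = 0.13). Total count scaling called MCL1 lower in Combination, by -0.12 (adjusted p = 0.00823), under a scaling that moved the median of all genes by -0.21.

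In Combination BAK1 was lower than in DMSO, while BAX was higher with TMM scaling but not called with total counts. BAX, the effector that moves from the cytosol to mitochondria (chromosome 19, 48954815 to 48961798, plus strand), had 84.3, 83.1 and 75.9 CPM in CAR, 60.5, 58.5 and 58.9 CPM in JQ1 and 74.0, 79.0 and 78.6 CPM in Combination, against 62.0, 61.8 and 72.3 CPM in DMSO. CAR and Combination overlapped with each other and lay above all DMSO libraries, and JQ1 lay below them. It changed by 0.31 (SE 0.057, adjusted p = 8.08e-05) in CAR and 0.24 (SE 0.057, adjusted p = 0.000608) in Combination, and Combination lay 1.30-fold above JQ1 (adjusted p = 1.29e-05). With total counts the change in Combination was 0.03 (adjusted p = 0.612). The fall in JQ1 (-0.14, adjusted p = 0.0308) was lost without DMSO replicate 3 (-0.06, adjusted p = 0.26), JQ1 replicate 2 (-0.13, adjusted p = 0.0944) or JQ1 replicate 3 (-0.13, adjusted p = 0.0748), and with only the groups compared (-0.14, adjusted p = 0.0671). The length and GC correction gave 0.03 in place of that fall. BAX is shorter than most transcripts, at the 8.24 percentile of tested genes, and DMSO replicate 3, the library that deviated by length, had the highest BAX of its group. The part of transcript length in these values was not tested.

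BAK1, the effector resident in the mitochondrial membrane (chromosome 6, 33572547 to 33580293, minus strand), had 55.2, 57.8 and 54.9 CPM in CAR, 38.2, 35.7 and 37.5 CPM in JQ1 and 35.3, 34.5 and 37.7 CPM in Combination, against 50.6, 51.3 and 51.4 CPM in DMSO. JQ1 and Combination overlapped with each other and lay below every other library. The log2 change was -0.46 (SE 0.050, adjusted p = 2.08e-08) in JQ1 and -0.51 (SE 0.051, adjusted p = 4.34e-09) in Combination. The rise in CAR was 0.13 (SE 0.048, adjusted p = 0.0232). It was lost without DMSO replicate 1 (0.12, adjusted p = 0.0711) or CAR replicate 2 (0.11, adjusted p = 0.0999), and with upper-quartile scaling (0.10, adjusted p = 0.0876), total counts (0.07, adjusted p = 0.25) or DESeq2 (0.13, adjusted p = 0.0634). Combination minus JQ1 was -0.05 (adjusted p = 0.444), called with total counts (-0.14, adjusted p = 0.0355) and with the length and GC correction (-0.14, adjusted p = 0.0173).

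The BH3-only members split under JQ1, with BCL2L11 and BBC3 higher and PMAIP1, BID and BAD lower. BCL2L11, which encodes BIM, an activator that binds every anti-apoptotic member (chromosome 2, 111119378 to 111168447, plus strand), had 38.8, 37.6 and 38.1 CPM in CAR, 71.97, 74.7 and 75.4 CPM in JQ1 and 74.9, 79.9 and 77.7 CPM in Combination, against 41.7, 41.5 and 37.6 CPM in DMSO. JQ1 and Combination overlapped with each other and lay far above CAR and DMSO, which also overlapped. The fitted log2 change came to 0.88 (SE 0.049, adjusted p = 2.33e-13) in JQ1 and 0.95 (SE 0.049, adjusted p = 5.75e-14) in Combination. Combination minus JQ1 was 0.07 (SE 0.047, adjusted p = 0.249), with -0.02 under total counts and a call at 0.14 with the length and GC correction (adjusted p = 0.00281). In CAR the change was -0.08 (adjusted p = 0.221), and without DMSO replicate 3 it was called at -0.12 (adjusted p = 0.0425), as it was with total counts at -0.14 (adjusted p = 0.0234). Exons of MIR4435-2HG overlap BCL2L11 over 727 bases.

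BBC3, which encodes PUMA, a protein that binds all anti-apoptotic members (chromosome 19, 47220822 to 47232766, minus strand), was the member whose fall in CAR was largest. It had 3.02, 3.60 and 3.02 CPM in CAR, 10.6, 10.5 and 8.10 CPM in JQ1 and 5.38, 7.97 and 6.62 CPM in Combination, against 4.39, 4.20 and 5.04 CPM in DMSO. The groups did not overlap, and JQ1 was highest and CAR lowest. The log2 change was -0.50 (SE 0.16, adjusted p = 0.0129) in CAR, 1.10 (SE 0.14, adjusted p = 1.69e-07) in JQ1 and 0.55 (SE 0.15, adjusted p = 0.00168) in Combination. Combination was 1.47-fold below JQ1 (adjusted p = 0.00137). The call in CAR was lost with the length and GC correction (-0.32, adjusted p = 0.0808).

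PMAIP1, which encodes NOXA, the BH3-only protein that binds mainly MCL1 (chromosome 18, 59899948 to 59904306, plus strand), had 55.6, 56.1 and 59.4 CPM in CAR, 35.6, 38.6 and 37.7 CPM in JQ1 and 31.3, 30.4 and 31.3 CPM in Combination, against 55.9, 52.8 and 55.0 CPM in DMSO. Combination was lowest and did not overlap with JQ1, while CAR and DMSO overlapped. On the log2 scale the change was 0.06 (SE 0.048, adjusted p = 0.263) in CAR, -0.55 (SE 0.050, adjusted p = 1.24e-09) in JQ1 and -0.82 (SE 0.052, adjusted p = 2.05e-12) in Combination. Combination was 1.20-fold below JQ1 (adjusted p = 0.000325).

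BID, which caspase-8 cleaves to join death receptors to mitochondria (chromosome 22, 17734138 to 17774770, minus strand), showed the largest change of any member in JQ1. It had 40.7, 41.1 and 38.7 CPM in CAR, 5.98, 7.35 and 6.99 CPM in JQ1 and 8.27, 7.21 and 8.26 CPM in Combination, against 31.7, 33.4 and 31.7 CPM in DMSO. JQ1 and Combination overlapped with each other and lay far below DMSO, and CAR lay above it. The log2 change was 0.32 (SE 0.059, adjusted p = 0.000101) in CAR, -2.25 (SE 0.078, adjusted p = 5.21e-17) in JQ1 and -2.03 (SE 0.077, adjusted p = 2.01e-16) in Combination. Combination minus JQ1 was 0.23 (SE 0.10, adjusted p = 0.0662), and it was called without JQ1 replicate 2 (0.29, adjusted p = 0.0404) or Combination replicate 2 (0.29, adjusted p = 0.036).

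BAD, which survival kinases phosphorylate and hold in the cytosol (chromosome 11, 64269830 to 64284704, minus strand), changed least among the BH3-only members in JQ1 and Combination. It had 46.9, 47.7 and 43.1 CPM in CAR, 42.5, 40.3 and 38.7 CPM in JQ1 and 39.7, 41.5 and 42.5 CPM in Combination, against 48.3, 48.3 and 58.4 CPM in DMSO. DMSO replicate 3 was the highest library, all DMSO libraries lay above the others, and JQ1 and Combination overlapped. Its log2 change in the fit was -0.35 (SE 0.067, adjusted p = 5.95e-05) in JQ1 and -0.33 (SE 0.068, adjusted p = 0.00014) in Combination. Without DMSO replicate 3 these were -0.25 and -0.22, both still called. The fall in CAR (-0.17, adjusted p = 0.0314) was lost without DMSO replicate 3 (-0.07, adjusted p = 0.254), CAR replicate 1 (-0.18, adjusted p = 0.0508) or CAR replicate 3 (-0.13, adjusted p = 0.156). DESeq2 (-0.17, adjusted p = 0.0552), only the groups compared (-0.16, adjusted p = 0.0936) and the length and GC correction (-0.09, adjusted p = 0.0849) also lost it. BAD is among the shortest transcripts, at the 5.43 percentile. Its exons overlap GPR137 on the other strand over 404 bases, and GPR137 averaged 43.3, 26.2 and 36.1 CPM in CAR, JQ1 and Combination, against 38.2 CPM in DMSO.

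Levels per length, which allow genes to be compared, put BCL2L1 and MCL1 far ahead of BCL2 among the anti-apoptotic members. Here each count was divided by the merged exons of the gene, and shares are of the summed level of the 10 members. BCL2L1 took 39.2% in CAR, 36.7% in JQ1 and 27.5% in Combination, against 43.7% in DMSO. MCL1 took 18.9% in CAR, 22.9% in JQ1 and 24.9% in Combination, against 16.8% in DMSO. BCL2 took 0.450% in CAR, 0.147% in JQ1 and 0.125% in Combination, against 0.407% in DMSO. So the fall of BCL2, the steepest of the 3, concerned the smallest supply of anti-apoptotic mRNA by this measure. The ratio of BCL2L1 to MCL1 was 2.07 ± 0.073 in CAR, 1.61 ± 0.046 in JQ1 and 1.11 ± 0.075 in Combination, against 2.60 ± 0.11 in DMSO (SD, n = 3 each), with no overlap between groups.

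The balance of pro- to anti-apoptotic mRNA was highest in Combination. The summed level per length of the pro-apoptotic members over that of the anti-apoptotic members was 0.725, 0.727 and 0.676 for the CAR libraries, 0.689, 0.658 and 0.675 for JQ1 and 0.909, 0.884 and 0.921 for Combination, against 0.634, 0.612 and 0.680 for DMSO. Combination overlapped with no other group, while CAR, JQ1 and DMSO lay close together and each of these 3 overlapped with the others. Means were 0.709 ± 0.028 in CAR, 0.674 ± 0.016 in JQ1 and 0.905 ± 0.019 in Combination, against 0.642 ± 0.035 in DMSO (SD, n = 3 each). The ratio is free of library scaling, and it has no test here because the members were chosen with results known. The numerator was not what grew in Combination: pro-apoptotic members summed to 135 ± 3.9 CPM per kilobase in Combination against 155 ± 8.6 in DMSO, and anti-apoptotic members to 150 ± 5.3 in Combination against 241 ± 3.8 in DMSO. In JQ1 both sums were lower than in DMSO, at 126 ± 1.8 against 155 ± 8.6 for pro-apoptotic and 187 ± 3.9 against 241 ± 3.8 for anti-apoptotic members. In CAR the sums were 167 ± 5.0 against 155 ± 8.6 in DMSO and 235 ± 2.6 against 241 ± 3.8 in DMSO.

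Effectors and BH3-only members shared unequally in this balance, to a degree that depended on the length used. Effectors over anti-apoptotic members came to 0.352 ± 0.019 in CAR, 0.314 ± 0.012 in JQ1 and 0.473 ± 0.011 in Combination, against 0.288 ± 0.017 in DMSO (SD, n = 3 each). BH3-only over anti-apoptotic members came to 0.357 ± 0.0096 in CAR, 0.360 ± 0.0047 in JQ1 and 0.431 ± 0.0084 in Combination, against 0.354 ± 0.018 in DMSO. Without division by length, effectors over anti-apoptotic members came to 0.176 in CAR, 0.154 in JQ1 and 0.218 in Combination, against 0.149 in DMSO. BH3-only over anti-apoptotic members then came to 0.236 in CAR, 0.268 in JQ1 and 0.317 in Combination, against 0.234 in DMSO. So without length BH3-only exceeded effector members in every group. The ratio of Combination to DMSO was then 1.47 for effectors and 1.36 for BH3-only members. With the longest transcript, effectors came to 0.456 and BH3-only members to 0.457 of the anti-apoptotic sum in Combination. BAX over BCL2, a pair often quoted, was 31.8 ± 1.9 in CAR, 91.5 ± 8.4 in JQ1 and 154 ± 11 in Combination, against 28.96 ± 4.3 in DMSO. Its size depends on the long BCL2 exons: the log2 ratio was 4.99 in CAR, 6.51 in JQ1 and 7.26 in Combination, against 4.85 in DMSO. With the longest transcript it was 4.39, 5.91 and 6.66 in those drug groups, against 4.25 in DMSO, and without length 1.94, 3.46 and 4.21, against 1.79 in DMSO. The move of that ratio in JQ1 rested on BCL2, since BAX was not higher there. BCL2L11 amounted to 8.26 ± 0.39% of MCL1 in CAR, 16.9 ± 0.64% in JQ1 and 18.0 ± 0.59% in Combination, against 9.94 ± 0.49% in DMSO. The log2 ratio of PMAIP1 to MCL1 was -1.48 ± 0.030 in CAR, -2.01 ± 0.071 in JQ1 and -2.26 ± 0.073 in Combination, against -1.36 ± 0.097 in DMSO. BCL2L11 and PMAIP1 therefore moved in opposite directions relative to MCL1 in JQ1 and Combination. Other BH3-only members were not set against MCL1.

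**Figure D3:**
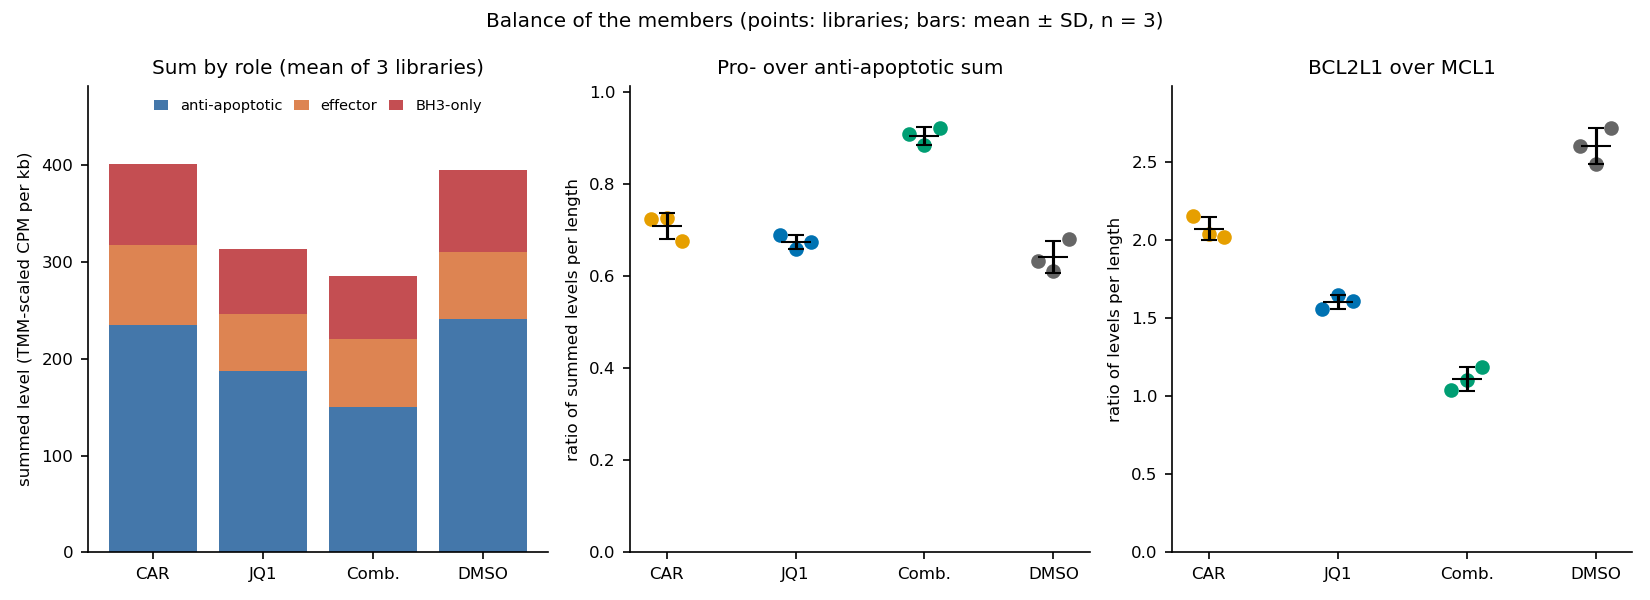
Left, mean summed level per length by role, in TMM-scaled CPM per kilobase. Middle and right, ratio of pro- to anti-apoptotic members and of BCL2L1 to MCL1, with points for libraries and bars for mean ± SD (n = 3), where Comb. is Combination. The ratio of pro- to anti-apoptotic members sits between 0.884 and 0.921 in Combination and at most 0.727 elsewhere.

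Combination parted from JQ1 in BCL2, BCL2L1, PMAIP1 and BBC3, which were lower, and in BAX, which was higher. In Combination minus JQ1, 1 member was called higher, beside 26.0% of all genes, and 4 lower, beside 25.9%. In all, 5 of 10 were called beside 51.9%, and libraries of 5 did not overlap beside 62.3%. In Combination minus CAR, 2 members (BCL2L11 and BBC3) were called higher, beside 42.4% of all genes, and 7 lower, beside 43.0%. In all, 9 of 10 were called beside 85.4%, and libraries of 8 did not overlap beside 87.4%. BCL2 (5.05-fold) and BID (5.07-fold) were lowest relative to CAR. MCL1 lay below CAR by -0.10 (adjusted p = 0.0223), and this was lost without CAR replicate 2 (-0.10, adjusted p = 0.0612), CAR replicate 3 (-0.08, adjusted p = 0.0977), Combination replicate 1 (-0.10, adjusted p = 0.0544) or Combination replicate 3 (-0.08, adjusted p = 0.112). BAD lay below CAR by -0.15 (adjusted p = 0.0408), lost without CAR replicate 1 (-0.14, adjusted p = 0.105), CAR replicate 2 (-0.13, adjusted p = 0.132), JQ1 replicate 2 (-0.15, adjusted p = 0.056), Combination replicate 1 (-0.13, adjusted p = 0.133) or Combination replicate 2 (-0.16, adjusted p = 0.0722), and with DESeq2 (-0.16, adjusted p = 0.0697). The length and GC correction turned MCL1 to 0.06 there, and BAX, not called at -0.07 (adjusted p = 0.242), was called with total counts (-0.21, adjusted p = 0.00167).

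The interaction term (Combination and DMSO together, minus CAR and minus JQ1) asks whether the Combination differed from the sum of the single agents on the log2 scale. All 3 anti-apoptotic members and 2 of the 7 pro-apoptotic ones were called below that sum, beside 18.2% of all genes, and 0 above it, beside 20.1%. In all, 5 of 10 were called beside 38.3%. For BCL2L1 the Combination stood at -1.14 against -0.72 for the sum, a difference of -0.42 (SE 0.056, adjusted p = 7.16e-06). For BCL2 it stood at -2.17 against -1.63, a difference of -0.54 (SE 0.15, adjusted p = 0.00621). For PMAIP1 it stood at -0.82 against -0.49, a difference of -0.33 (SE 0.073, adjusted p = 0.00114). MCL1 stood at 0.09 against 0.30, a difference of -0.21 (SE 0.056, adjusted p = 0.00505). These 4 calls held in every alternative run. BAK1 differed by -0.18 (adjusted p = 0.0492), and the call held without DMSO replicate 3, JQ1 replicate 2 or Combination replicate 3 but was lost without any 1 of the other 9 libraries, with values from -0.22 to -0.16 over all 12. It was also lost with upper-quartile scaling (-0.16, adjusted p = 0.0855), DESeq2 (-0.18, adjusted p = 0.111), no filter (-0.19, adjusted p = 0.0617) or a filter of 1 CPM in 3 libraries (-0.17, adjusted p = 0.0559). BCL2L11 lay above its sum, at 0.95 against 0.80, with an adjusted p of 0.116 that became 0.0161 (0.19) without DMSO replicate 3 and 0.038 (0.16) with the length and GC correction. BBC3, BAX, BID and BAD were not called, with differences of -0.05, 0.07, -0.09 and 0.20.

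**Figure D4:**
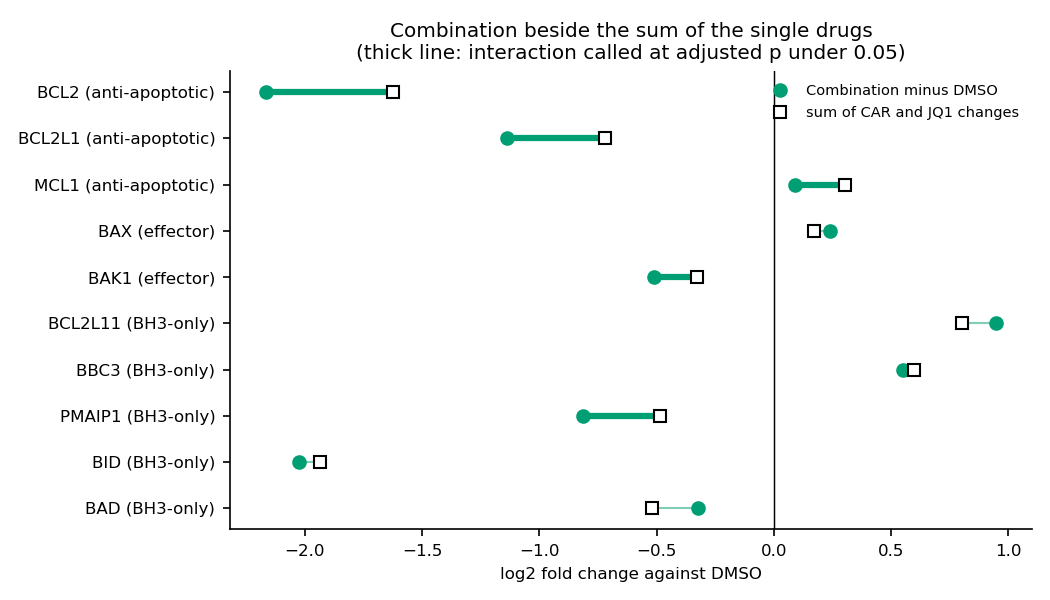
Log2 fold change against DMSO in Combination (filled circles) and the sum of the changes in CAR and JQ1 (open squares) for each member. Thick lines join pairs whose interaction was called. BCL2, BCL2L1, MCL1, BAK1 and PMAIP1 lie left of their sums.

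Other genes of the family and of the death pathway were read from lists chosen with earlier results known. The counts called in each list stand beside 42.6% of all genes called higher and 42.8% lower in Combination, 41.5% and 42.2% in JQ1 and 27.3% and 30.1% in CAR. Among other BCL2 family genes, 8 of 13 were tested, and 4 were higher and 3 lower in Combination minus DMSO, close to those shares (median log2 0.31, against 0.0015 over all genes). In JQ1 4 were higher and 2 lower, and in CAR 3 were higher and 2 lower. BCL2L10 and BCL2L14 are not analysed here, and BCL2A1, HRK and BCL2L15 were too low to test. BNIP3, a hypoxia-induced mitophagy receptor, averaged 213 ± 4.3 CPM in CAR, 234 ± 3.1 in JQ1 and 563 ± 16 in Combination, against 179 ± 8.2 in DMSO (SD, n = 3 each), with a log2 change of 1.65 in Combination (adjusted p = 5.57e-20). Its relative BNIP3L rose by 0.63 there (adjusted p = 9.64e-13), and BCL2L13 by 0.41 (adjusted p = 1.52e-08). BMF, a BH3-only gene tied to the cytoskeleton, averaged 3.29 ± 0.42 CPM in CAR, 30.9 ± 3.1 in JQ1 and 7.93 ± 0.52 in Combination, against 13.8 ± 0.98 in DMSO. BMF thus changed by -2.07 in CAR (adjusted p = 5.07e-12), 1.16 in JQ1 (adjusted p = 1.21e-11) and -0.80 in Combination (adjusted p = 1.91e-07). BOK, a BAX-like effector, was lower by -0.70 in Combination (adjusted p = 6.77e-10), and BCL2L2, an anti-apoptotic relative of BCL2L1, by -0.36 (adjusted p = 1.39e-05).

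Downstream of the mitochondria, 5 of 14 apoptosome, caspase and released-protein genes were higher and 8 lower in Combination minus DMSO (median -0.17), beside 42.6% and 42.8% of all genes, 6 and 6 in JQ1 and 3 and 6 in CAR. With the length and GC correction 6 were higher and 5 lower in Combination (median 0.01). CASP9, the initiator caspase of the apoptosome, averaged 7.99 ± 0.37 CPM in CAR, 22.7 ± 0.52 in JQ1 and 25.1 ± 0.57 in Combination, against 11.1 ± 0.25 in DMSO, a log2 change of 1.18 in Combination (adjusted p = 2.18e-13). DIABLO, the released antagonist of the inhibitor of apoptosis proteins, rose by 0.59 (adjusted p = 1.04e-09), HTRA2 by 0.47 (adjusted p = 2.38e-08) and DFFA, the inhibitor of the caspase-activated nuclease, by 0.80 (adjusted p = 2.5e-14). AIFM1 fell by 0.94 (adjusted p = 2.2e-10) and PARP1 by 0.47 (adjusted p = 1.98e-11). Of 5 tested inhibitor of apoptosis genes, 1 was higher and 3 lower in Combination, 2 and 3 in JQ1 and 0 and 2 in CAR. BIRC5, which encodes survivin and peaks in mitosis, averaged 149 ± 1.7 CPM in CAR, 15.3 ± 1.0 in JQ1 and 13.5 ± 1.6 in Combination, against 157 ± 13 in DMSO. BIRC3 changed by -1.73 (adjusted p = 6.87e-13), XIAP by -0.50 (adjusted p = 5.13e-07) and BIRC6 by 0.84 (adjusted p = 9.41e-05).

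Upstream, 11 genes of death receptors and their signalling were tested, a list of receptors, adaptors, caspases, a ligand and the inhibitor gene CFLAR. Of these, 3 were higher and 8 lower in Combination minus DMSO (median -1.08), beside 42.6% and 42.8% of all genes. In JQ1 3 were higher and 8 lower (median -0.58), and in CAR 4 and 3. CFLAR, which encodes the caspase-8 inhibitor FLIP, averaged 70.0 ± 1.6 CPM in CAR, 79.6 ± 1.9 in JQ1 and 43.1 ± 1.4 in Combination, against 119 ± 1.6 in DMSO. RIPK1 (1.26) and TRADD (1.22), adaptors of the TNF receptor, were higher and the receptor TNFRSF1A (-1.08) and CASP10 (-1.96) lower, with adjusted p-values of 6.83e-18, 1.65e-11, 7.42e-16 and 6.04e-13. TNFRSF10B, a TRAIL receptor, was higher by 0.26 (adjusted p = 3.68e-06). TNFRSF10A, the other TRAIL receptor of the list, changed by -1.35 (adjusted p = 5.26e-12). Of 8 mitochondrial partners, 3 were higher and 2 lower in Combination, led by MFN1 (0.76, adjusted p = 4.38e-12) and MFN2 (-0.60, adjusted p = 1.08e-11), which fuse outer membranes. With total counts, 2 of the 8 were higher and 5 lower in Combination, and with the length and GC correction 6 were higher and 1 lower. In CAR, 6 of the 8 were higher and 0 lower, and with total counts 4 and 1.

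Transcription factors known to act on member genes went both ways, with 5 of 11 higher and 6 lower in Combination minus DMSO (median -0.50), 3 and 6 in JQ1 and 3 and 4 in CAR. E2F1 changed by -1.44 (adjusted p = 1.01e-16), NFKB1 by -1.56 (adjusted p = 1.39e-16) and ATF4 by -0.80 (adjusted p = 1.01e-12). FOXO1, known to activate BCL2L11, averaged 11.3 ± 0.21 CPM in CAR, 32.5 ± 1.4 in JQ1 and 31.7 ± 0.51 in Combination, against 12.9 ± 1.2 in DMSO. Of 7 genes listed for MCL1 turnover, 6 were higher and 1 lower in Combination (median 0.50), beside 42.6% and 42.8% of all genes. Total counts gave 4 higher and 1 lower there. In JQ1 4 were higher and 2 lower, and in CAR 3 and 0. The list includes CDK9, which acts in transcription and not in turnover and changed by 0.14 in Combination (adjusted p = 0.00717). USP9X, a deubiquitinase that stabilises MCL1, changed by 1.39 (adjusted p = 8.89e-15), while the ligase genes FBXW7 and BTRC changed by 0.91 (adjusted p = 4.11e-11) and 0.50 (adjusted p = 1.07e-07). CDC20, a mitotic activator of the ligase APC/C, changed by -3.09 (adjusted p = 4.84e-19). The genes that rose include both a stabiliser of MCL1 and ligases that degrade it.

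**Figure D5:**
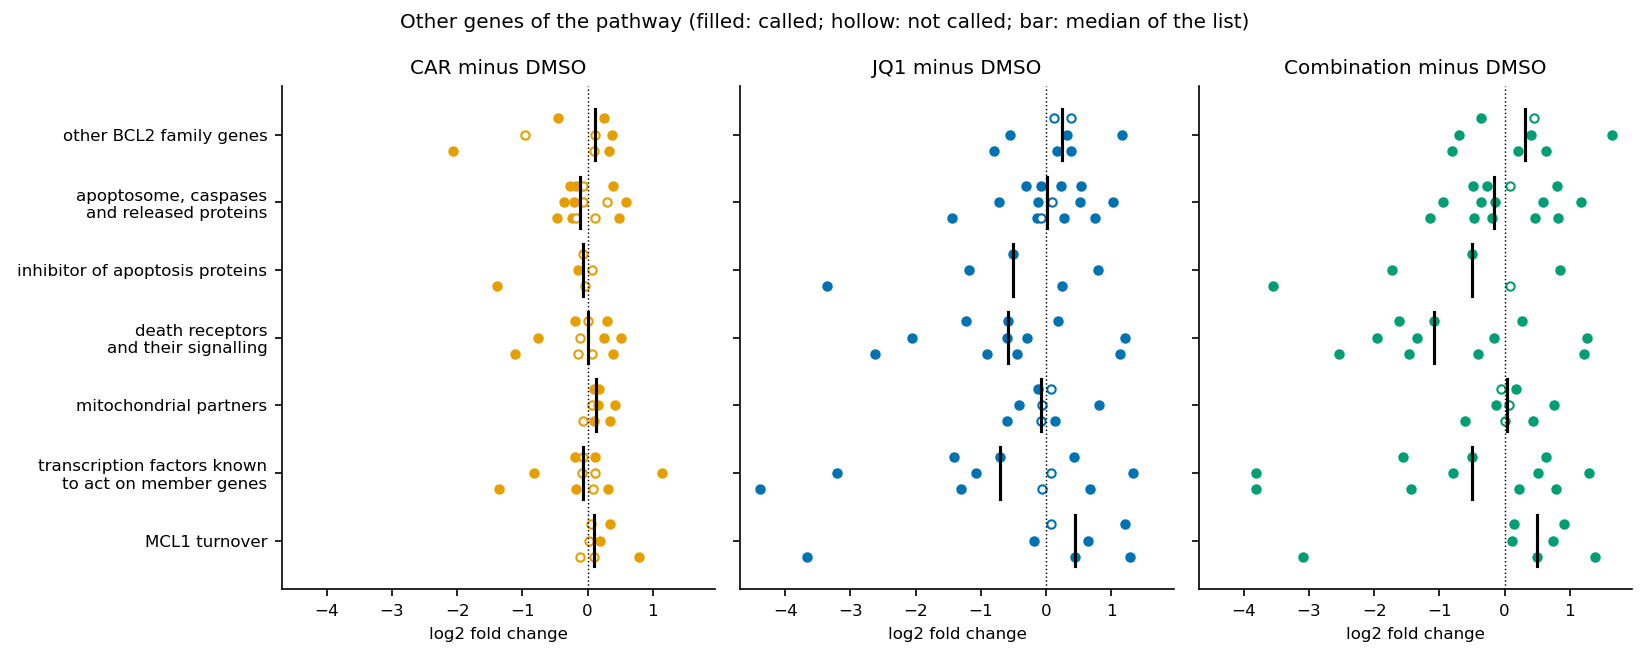
Log2 fold change against DMSO of the tested genes of 7 pathway lists in CAR, JQ1 and Combination. Filled points were called at an adjusted p under 0.05, hollow ones were not, and black bars are list medians. Genes of death receptors and their signalling lie mostly left in JQ1 and Combination, with medians of -0.58 and -1.08.

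The genes whose 3 log2 changes against DMSO lay nearest to those of a member, among 10719 candidates, were measured by Euclidean distance over the 3 shared-control comparisons, as a description. Nearest to BCL2 were SP100 (distance 0.059) and PRMT6 (0.064), and nearest to BCL2L1 were EPHB4 (0.055) and RBM26 (0.061). BCL2L11 lay nearest to SPECC1L (0.038) and GLG1 (0.046), BBC3 to CRTC1 (0.064) and WASF3 (0.068), and PMAIP1 to RAB28 (0.039) and SSBP4 (0.061). BAX lay nearest to PISD (0.027) and SUPV3L1 (0.047), BAK1 to XRCC5 (0.011) and FH (0.031), and MCL1 to COPS2 (0.010) and RPL23A (0.039). BID lay nearest to ZNF710 (0.061) and KIF18A (0.12), and BAD lay nearest to CNPY3 (0.025) and RIMKLB (0.040).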

How the data were processed

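Poly(A) RNA was sequenced from 12 MDA-MB-231 libraries with a stranded mRNA kit, per the labels' protocols. The authors deposited 1 table of whole-number read counts per gene symbol and library, not normalized. Per the submitters' processing notes, Trimmomatic, HISAT2 and HTSeq were used with build hg38. Their versions, the annotation and the strand setting were not given in the sources used here. Whether the counting separated reads of overlapping genes on opposite strands is therefore not known here. Members, lists and motifs were chosen with earlier results of these data known.

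The tests used edgeR 4.0.16 in R 4.3.3. Its filterByExpr by group, with a minimum count of 10 and a minimum total of 15, retained 12645 of 16384 genes, and TMM factors were 0.92 to 1.08. All 12 libraries entered 1 robust quasi-likelihood fit of the 4 groups (8 residual degrees of freedom; common BCV, the biological coefficient of variation, 0.0408). The standard error is the log2 change divided by the root of its F statistic. A call needs an adjusted p under 0.05 (Benjamini-Hochberg, per comparison). Merged exon lengths and positions came from GENCODE v29 (GRCh38), which matched 16233 of 16384 symbols (99.1%).

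Named genes were all 10 members, up to 4 genes per list with the smallest adjusted p in Combination minus DMSO, up to 2 against the list's majority, and the 2 nearest patterns per member. TNFRSF10A and CDK9 were named in addition to these. A minimum of 5 CPM in 1 group applied to all but the members. A gene that the rule took is not reported here, though it stayed in the tests and counts. Alternatives were upper-quartile and total count scaling, DESeq2 1.42.0, 2 other filters, a fit to the groups compared, a replicate block, a length and GC correction (mgcv 1.9.3), each library left out, and other lengths. On data simulated for CAR minus DMSO over 12645 genes, the test called 30 of 49 genes changed 1.25-fold, 46 of 50 changed 1.5-fold, 46 of 50 changed 2-fold, 49 of 49 changed 4-fold and 17 of 12280 unchanged genes. The floor of 3 counts reflects counting error alone, because PCR duplicates are no independent molecules.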

Additional observations from a re-analysis of the deposited data

Results flagged for a closer look

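The change in Combination differed from the sum of the changes in CAR and JQ1 for 5 of 10 members, by the interaction term of the edgeR quasi-likelihood fit. Of all genes tested, 38.3% were called in that term, 18.2% of them below the sum and 20.1% above it. The difference on the log2 scale was -0.54 for BCL2, -0.42 for BCL2L1, -0.21 for MCL1, -0.33 for PMAIP1 and -0.18 for BAK1. The BAK1 call (adjusted p = 0.0492) was lost without any 1 of 9 libraries, and with upper-quartile scaling, DESeq2, both other filters and the replicate block. The first 3 are the anti-apoptotic members, and PMAIP1 encodes the BH3-only protein that binds mainly MCL1. No explanation was tested.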

How the results depend on the processing

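Of 1250 values of single members under alternatives, covering 60 results, 1159 kept direction and call, 58 lost the call, 15 gained it and 18 reversed. With total counts the reversals were PMAIP1 in CAR (-0.0014), MCL1 in JQ1 (-0.00952) and Combination (-0.116), each minus DMSO, and BCL2L11 (-0.0217) and BAD (-0.0627) in Combination minus JQ1. With the length and GC correction they were BAX in JQ1 minus DMSO (0.0334), MCL1 (0.0485) and BAD (-0.0563) in Combination minus JQ1, MCL1 in Combination minus CAR (0.0566) and the BAX interaction (-0.0442). With 1 library left out, Combination minus JQ1 ran from -0.0437 to 0.00452 for MCL1 (positive without Combination replicate 3) and from -0.00569 to 0.0609 for BAD (negative without JQ1 replicate 3). The BAX interaction ran from -0.011 to 0.109 (negative without DMSO replicate 3). The BBC3 interaction ran from -0.201 to 0.0804 (positive without DMSO replicate 2, CAR replicate 2, JQ1 replicate 1, JQ1 replicate 2 or Combination replicate 1). The cause was not tested. The count of members lower in CAR was 1 with the length and GC correction, against 3. The count higher in Combination minus DMSO was 2 with total counts, against 4. The count higher in Combination minus JQ1 was 2 with the length and GC correction and 1 to 2 with single libraries left out. The count above the sum in the interaction was 1 with that correction, 0 to 1 with single libraries left out, and 1 without both DMSO replicate 3 and Combination replicate 1. Without division by length, the ratio of pro- to anti-apoptotic members was 0.412 in CAR, 0.422 in JQ1 and 0.535 in Combination, against 0.382 in DMSO. With merged exons of all annotated transcripts, an alternative chosen after seeing the data, it was 0.599 in CAR, 0.574 in JQ1 and 0.742 in Combination, against 0.553 in DMSO, so Combination stayed highest. Same-numbered replicates deviated with correlations from -0.045 to 0.056 over 18 pairs, and 2 of 12 libraries correlated best with their own number, so the numbers were not taken as pairs. The replicate block moved no count of member calls by over 1.5 times, and the 1 call it changed was the BAK1 interaction (-0.18, adjusted p = 0.0629). In the simulation 200 of 12645 genes were changed, and 30 of 49 with the smallest change were called. In the data 57.3% of genes were called in CAR minus DMSO, which makes the adjusted threshold less strict. The simulated share therefore gives no limit of detection for these comparisons.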
